A study of Mus musculus with 12 samples.

Results

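Serum amyloid A genes were followed in lung and liver of mice taken 6 h after surgery. The set was defined by symbol and holds 4 genes, Saa1 (ENSMUSG00000074115), Saa2 (ENSMUSG00000057465), Saa3 (ENSMUSG00000040026) and Saa4 (ENSMUSG00000040017), of 55414 in the count table. All 4 were measured and all passed the low-count filter in both organs, Saa4 in lung with 0 to 22 counts per library. Saa1 and Saa2 were also added to 1 value. The animals were WT mice of the C57BL/6J strain that had undergone CLP, read here as cecal ligation and puncture, a surgical model of abdominal sepsis, or a sham operation. There were 3 libraries each of CLP lung, sham lung, CLP liver and sham liver, all from total RNA of whole tissue. All 4 groups had surgery, and unoperated mice were not analysed here. The labels do not say whether the libraries came from separate mice or whether both organs came from the same mice, so the spread behind each p-value is that of these samples alone and may be technical.

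Serum amyloid A proteins are small apolipoproteins that travel on high-density lipoprotein and are among the classical acute phase proteins of the mouse. Hepatocytes make SAA1 and SAA2 in response to interleukin-6, interleukin-1 and tumour necrosis factor, through STAT3, C/EBP and NF-kB proteins acting on the promoters. Saa3 is an inducible mouse gene that is also transcribed outside the liver, among others by macrophages, adipocytes and epithelia, and Saa4 is regarded as the constitutive member.

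Saa1 and Saa2 are so alike that reads of the pair can be confused, and their coding sequences are shown for that reason. In the GENCODE M21 transcripts both coding sequences, without the stop codon, are 366 bases long and 95.1% identical. Bases 73 to 359, counted from the start codon, hold all 18 differences, which stand in capitals.
Saa1: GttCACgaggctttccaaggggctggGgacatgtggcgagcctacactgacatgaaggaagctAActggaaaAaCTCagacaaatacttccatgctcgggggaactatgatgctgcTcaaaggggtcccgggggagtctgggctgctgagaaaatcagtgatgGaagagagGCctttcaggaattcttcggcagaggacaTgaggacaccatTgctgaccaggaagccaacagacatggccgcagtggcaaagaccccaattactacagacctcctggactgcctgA
Saa2: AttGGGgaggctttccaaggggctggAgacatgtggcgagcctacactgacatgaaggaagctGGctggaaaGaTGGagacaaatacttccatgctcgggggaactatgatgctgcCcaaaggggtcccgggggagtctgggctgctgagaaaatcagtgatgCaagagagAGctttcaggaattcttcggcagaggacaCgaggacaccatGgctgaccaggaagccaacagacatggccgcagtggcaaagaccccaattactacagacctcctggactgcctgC
The differences are spread along the sequence, so few long stretches are shared. Of all 50-base stretches of the Saa1 transcript, 13.2% also occurred in the Saa2 transcript, against 4.7% of its 75-base stretches and 0% of its 100-base stretches. Saa1 shared 74.3% of aligned coding bases with Saa3 and 64.4% with Saa4, and Saa3 shared 61.8% with Saa4. Counts of Saa3 and Saa4 are therefore less exposed to this ambiguity than those of Saa1 and Saa2 taken singly, and the summed value is given beside the single ones throughout.

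The 4 genes lie together on chromosome 7 in the order Saa3, Saa4, Saa1, Saa2, and none of their exons overlaps another gene in GENCODE M21. The 250 bases before the transcription start are shown for the inducible members, read 5′ to 3′ on each gene's own strand, because Saa1 and Saa2 share this region almost completely and Saa3 does not. The windows come from RefSeq on build GRCm38.p6, an older build than the mm39 of the counts, and the capitals mark the only C/EBP motif found (TTNNGNAAT, searched on both strands, here on the reverse strand).
Saa1, chr7:46742981-46743230, minus strand: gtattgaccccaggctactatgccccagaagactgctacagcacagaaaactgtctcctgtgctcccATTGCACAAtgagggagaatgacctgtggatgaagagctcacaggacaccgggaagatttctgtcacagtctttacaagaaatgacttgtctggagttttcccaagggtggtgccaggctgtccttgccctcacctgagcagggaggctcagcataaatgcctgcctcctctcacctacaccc
Saa2, chr7:46751583-46751832, plus strand: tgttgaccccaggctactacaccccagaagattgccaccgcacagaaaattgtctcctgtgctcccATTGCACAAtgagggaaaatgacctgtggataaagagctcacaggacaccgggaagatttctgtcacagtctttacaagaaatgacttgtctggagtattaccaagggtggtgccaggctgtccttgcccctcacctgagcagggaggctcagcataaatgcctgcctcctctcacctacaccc
Saa3, chr7:46715677-46715926, minus strand: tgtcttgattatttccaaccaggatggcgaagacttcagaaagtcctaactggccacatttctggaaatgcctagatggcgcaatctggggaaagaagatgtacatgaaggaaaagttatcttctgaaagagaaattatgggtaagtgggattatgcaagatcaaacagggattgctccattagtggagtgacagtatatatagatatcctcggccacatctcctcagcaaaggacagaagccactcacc
The Saa1 and Saa2 windows were 94.8% identical, while the other pairs, Saa4 included, ranged from 42.8% to 48.2%. ATTGCACAA stood 183 bases before the Saa1 start and 184 before the Saa2 start, and 10.2% of 32817 promoter windows of this length hold the motif. The NF-kB motif (present in 1.41% of windows), the STAT motif TTCNNNGAA (7.01%) and TATAAA (12.4%), searched on both strands without overlap among the matches, were not found in any of the 4 windows, which says nothing about binding of these factors.

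Library totals ran from 10559895 to 15854117 counts. Levels are given as CPM, counts per 1000000 counts of the library, with library sizes scaled by edgeR's trimmed mean method in each organ unless stated otherwise, and 3 counts in 1 library come to 0.189 to 0.284 CPM before that scaling. Genes were tested with edgeR's quasi-likelihood test and called at a Benjamini-Hochberg adjusted p below 0.05. In lung 48.9% of 15441 tested genes were called, 23.9% higher and 24.9% lower after CLP, and in liver 42.3% of 12392 were called, 21.4% higher and 21.0% lower. CLP and sham libraries did not overlap, with CLP higher, for 28.6% of genes in lung and 28.1% in liver, and with CLP lower for 31.1% in lung and 27.6% in liver. Higher genes were 49.0% of the calls in lung and 50.4% in liver, but 38.0% and 30.8% in the same order when only library totals set the scale, and 37.2% and 40.3% with upper-quartile scaling. These scales moved the median log2 fold change of all genes to between -0.13 and -0.14 in lung and between -0.11 and -0.21 in liver, against -0.03 and -0.01 in the main analysis. Markers fitted the organ labels: the summed level of 8 alveolar type 2 markers was 22768 to 28796 CPM in lung and 78.5 to 105 CPM in liver, and that of 10 hepatocyte markers was 42.4 to 144 CPM in lung and 70507 to 109263 CPM in liver.

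**Figure D1:**
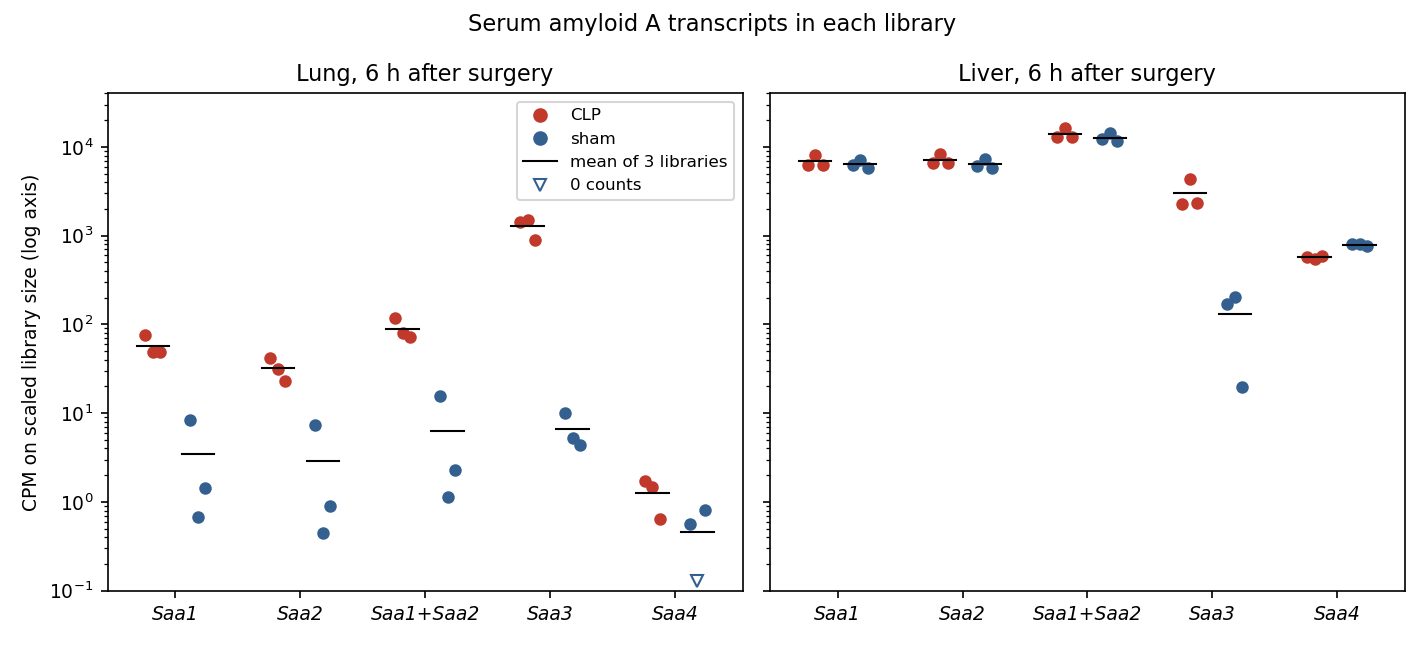
CPM (log axis) of each serum amyloid A gene and of Saa1 plus Saa2 in every library, lung on the left and liver on the right, with CLP in red left of sham in blue and a bar at the mean of 3 libraries; an open triangle marks 0 counts. Saa3 lies between 898 and 1517 CPM in CLP lung and between 4.41 and 10.2 CPM in sham lung, whereas the CLP and sham points of liver Saa1 and Saa2 overlap.

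The acute phase pair Saa1 and Saa2 was higher in CLP than in sham lung and stood at about the same high level in CLP and sham liver. In lung, Saa1 had 968, 598 and 536 counts after CLP, against 103, 9 and 19 counts after sham. Saa2 had 541, 389 and 252 counts in CLP lung, against 90, 6 and 12 counts in sham lung. Every CLP lung library lay above every sham lung library for both genes, and sham replicate 1 lay far above the other 2 sham libraries. Sham replicate 2, with 9 and 6 counts, lay below the filter's minimum count of 10. The sham lungs alone would therefore not have passed the filter for either gene. Both entered the lung test with the help of CLP libraries, which favours a higher value. The sum had 193, 15 and 31 counts in sham lung and did not need the CLP libraries to pass. In whole tissue, a change in how many cells of a type are present and a change in RNA per cell cannot be told apart.

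Summed, the pair reached 117, 79.9 and 71.7 CPM in CLP lung, against 15.7, 1.12 and 2.31 CPM in sham lung. The log2 fold change in lung was 4.07 ± 0.72 (standard error) for Saa1 (edgeR, Benjamini-Hochberg adjusted p = 0.00514), 3.51 ± 0.79 for Saa2 (adjusted p = 0.0119) and 3.84 ± 0.88 for the sum (adjusted p = 0.0174). Saa1 ranked as the 80th largest rise of 15441 genes and Saa2 as the 133rd. Without sham replicate 1 these values grew to 5.76, 5.56 and 5.69. The sum was no longer called without CLP replicate 1 (0.0523) and without sham replicate 3 (0.0504).

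In liver the pair was among the most abundant transcripts of both groups, Saa2 and Saa1 ranking 20th and 21st by mean CPM after CLP and 22nd and 21st after sham. Saa1 stood at 6302, 8123 and 6247 CPM in CLP liver, against 6184, 7167 and 5838 CPM in sham liver. Saa2 stood at 6573, 8292 and 6537 CPM in CLP liver, against 6027, 7282 and 5718 CPM in sham liver. The groups overlapped for both genes. The sum averaged 14025 ± 2071 CPM in CLP liver and 12739 ± 1517 CPM in sham liver (SD, n = 3 each), a log2 fold change of 0.14 with a 95% interval of -0.21 to 0.49 (edgeR, Benjamini-Hochberg adjusted p = 0.495). The single genes gave 0.11 ± 0.15 and 0.17 ± 0.15 for Saa1 and Saa2 (adjusted p = 0.600 and 0.404). With library totals as the scale all 3 values turned below 0, to -0.09, -0.02 and -0.05 for Saa1, Saa2 and the sum, and Saa1 also did so, at -0.02, without CLP replicate 2.

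Saa3, the member known for transcription outside the liver, was higher after CLP in both organs. In lung it had 18368, 18739 and 9865 counts after CLP, against 125, 71 and 59 counts after sham. On the CPM scale these were 1429, 1517 and 898 in CLP lung, against 10.2, 5.31 and 4.41 in sham lung. The lowest CLP library lay far above the highest sham library. The log2 fold change was 7.60 ± 0.40 (95% interval 6.67 to 8.53; edgeR, Benjamini-Hochberg adjusted p = 3.56e-05), the 12th largest of all genes tested in lung. By mean level Saa3 ranked 58th in CLP lung and 11264th in sham lung. The value stayed between 7.41 and 8.04 in every alternative analysis.

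In liver Saa3 had 29842, 54548 and 22794 counts after CLP, against 2326, 2744 and 327 counts after sham. These were 2296, 4377 and 2341 CPM in CLP liver, against 169, 203 and 19.6 CPM in sham liver. The groups did not overlap, and sham replicate 3 lay far below the other 2 sham livers. The log2 fold change was 4.52 ± 0.89 (95% interval 2.37 to 6.67; edgeR, Benjamini-Hochberg adjusted p = 0.00819), the 72nd largest of 12392 genes. By mean level Saa3 ranked 50th in CLP liver and 811th in sham liver. Without sham replicate 3 the value was 4.01.

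Saa4, the constitutive member, was lower after CLP in liver and close to the detection limit in lung. In liver it stood at 582, 550.0 and 591 CPM after CLP, against 802, 807 and 769 CPM after sham. The groups did not overlap and varied little within themselves. The log2 fold change was -0.46 ± 0.11 (95% interval -0.72 to -0.21; edgeR, Benjamini-Hochberg adjusted p = 0.00983), and its adjusted p was 0.149 in 1 fit of all 12 libraries. In lung Saa4 had 22, 18 and 7 counts after CLP, against 7, 0 and 11 counts after sham. The groups overlapped, and the log2 fold change of 1.46 ± 0.73 did not pass the threshold (edgeR, Benjamini-Hochberg adjusted p = 0.137; 95% interval -0.24 to 3.16).

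Counted over the 4 genes, 3 were called higher and 0 lower in lung, beside 23.9% of all genes higher, and 1 was called higher and 1 lower in liver, beside 21.4% higher and 21.0% lower. With only 4 members these counts describe the genes and say nothing of the set as such. In lung, Saa1 and Saa2 passed the low-count filter only with the help of CLP libraries, which favours a call of higher.

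**Figure D2:**
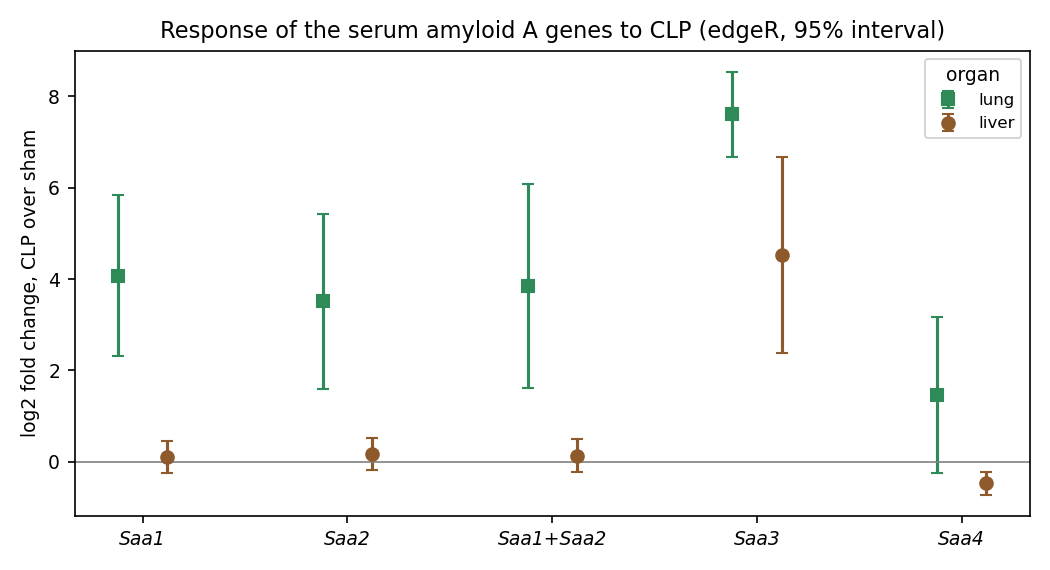
Log2 fold change of CLP over sham for each gene and for Saa1 plus Saa2, with lung as green squares left of liver as brown circles and bars giving the 95% interval from edgeR. The lung interval of Saa3 (6.67 to 8.53) lies farthest from 0, the liver intervals of Saa1 and Saa2 include 0, and that of liver Saa4 (-0.72 to -0.21) lies below it.

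The difference between the responses of the organs was tested over all 12 libraries, and it was above 0 and called for each gene. The lung response minus the liver response was 3.93 ± 0.76 for Saa1 (edgeR, Benjamini-Hochberg adjusted p = 0.00366), 3.31 ± 0.81 for Saa2 (adjusted p = 0.0142) and 3.66 ± 0.86 for their sum (adjusted p = 0.0113), on the log2 scale. It was 3.04 ± 0.95 for Saa3 (adjusted p = 0.0489) and 1.89 ± 0.60 for Saa4 (adjusted p = 0.0461). In the same test 17.7% of 16111 genes were called, 8.89% with a difference above 0 and 8.84% with one below 0. The values of Saa3 and Saa4 lay just inside the threshold and fell outside it when most single libraries were left out, with adjusted p-values up to 0.120 for Saa3 and 0.141 for Saa4, and Saa3 had an adjusted p of 0.269 in limma-voom. For Saa1 the difference passed the threshold in every alternative run.

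In sham mice the 4 genes were much lower in lung than in liver. On a scale common to all 12 libraries, Saa1 averaged 2.18 ± 2.66 CPM in sham lung and 10277 ± 1119 CPM in sham liver (SD, n = 3 each). Saa2 averaged 1.81 ± 2.40 CPM in sham lung and 10191 ± 1345 CPM in sham liver. Saa4 averaged 0.290 ± 0.264 CPM in sham lung and 1274 ± 31.6 CPM in sham liver. The gap was smallest for Saa3, at 4.15 ± 1.93 CPM in sham lung and 210 ± 157 CPM in sham liver. The log2 differences, sham lung minus sham liver, were -12.22 ± 0.78 for Saa1, -12.48 ± 0.84 for Saa2, -12.06 ± 0.42 for Saa4 and -5.66 ± 0.80 for Saa3 (edgeR, Benjamini-Hochberg adjusted p at most 4.28e-05). Between these organs 80.8% of genes were called, 44.4% higher and 36.5% lower in lung. With library totals as the scale the difference was -4.35 for Saa3 and -10.91 for Saa1. It was -6.25 for Saa3 without sham liver replicate 3 and -13.92 for Saa1 without sham lung replicate 1.

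Levels of different genes were compared per kilobase of the main coding transcript, as CPM per kb on the common scale. In CLP lung Saa3 led at 1423 ± 377, followed by Saa1 at 58.2 ± 15.8, Saa2 at 32.7 ± 9.88 and Saa4 at 0.374 ± 0.166 CPM per kb (SD, n = 3), and no neighbours in this order overlapped. In sham lung the order was Saa3 at 7.48 ± 3.48, Saa1 at 3.59 ± 4.36, Saa2 at 2.98 ± 3.97 and Saa4 at 0.139 ± 0.126 CPM per kb, and the first 3 overlapped. In CLP liver Saa2 at 18968 ± 2790 and Saa1 at 18233 ± 2945 CPM per kb overlapped and stood above Saa3 at 8732 ± 3515 and Saa4 at 442 ± 13.9 CPM per kb. In sham liver Saa1 at 16876 ± 1837 and Saa2 at 16817 ± 2219 CPM per kb overlapped, and Saa4 at 608 ± 15.1 stood above Saa3 at 378 ± 283 CPM per kb. Saa3 and Saa4 thus changed places in liver, with Saa3 above Saa4 in all CLP libraries and below it in all sham libraries. Taking the length of all exons of a gene in place of its main transcript kept the order in every group but lowered the levels of Saa1, Saa2 and Saa3, that of Saa3 in CLP lung to 303 CPM per kb.

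The make-up of the serum amyloid A counts differed between the organs and with CLP. Saa3 made up 92.3% (95% exact binomial interval 91.9% to 92.7%), 94.9% (94.6% to 95.2%) and 92.5% (92.0% to 93.0%) of the counts of the 4 genes in CLP lung. In sham lung its share was 38.5% (33.1% to 44.0%), 82.6% (72.9% to 89.9%) and 58.4% (48.2% to 68.1%), of only 325, 86 and 101 counts. The intervals cover counting error only. Saa3 was the larger part in every CLP lung, and the sham lungs spread widely below them. In liver the Saa3 share averaged 16.7% ± 3.34 in CLP and 0.919% ± 0.659 in sham libraries (SD, n = 3 each).

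The share of Saa4 in liver averaged 3.34% ± 0.666 in CLP and 5.84% ± 0.547 in sham libraries. Saa1 was 49.1% ± 0.338 of Saa1 plus Saa2 in CLP liver and 50.3% ± 0.570 in sham liver, and 64.3% ± 3.72 of the pair in CLP lung and 58.2% ± 4.25 in sham lung. An exact two-sided permutation test gave p = 0.1, the smallest value that 3 against 3 libraries allow, for the shares of Saa1, Saa2 and Saa3 in both organs and of Saa4 in liver, p = 0.4 for Saa4 in lung, and p = 0.1 in liver and 0.2 in lung for Saa1 within the pair. None of these can pass 0.05 in this design. All 4 genes together took 0.132% ± 0.0329 of the counts in CLP lung and 0.00139% ± 0.00115 in sham lung, against 1.64% ± 0.306 in CLP liver and 1.46% ± 0.140 in sham liver.

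**Figure D3:**
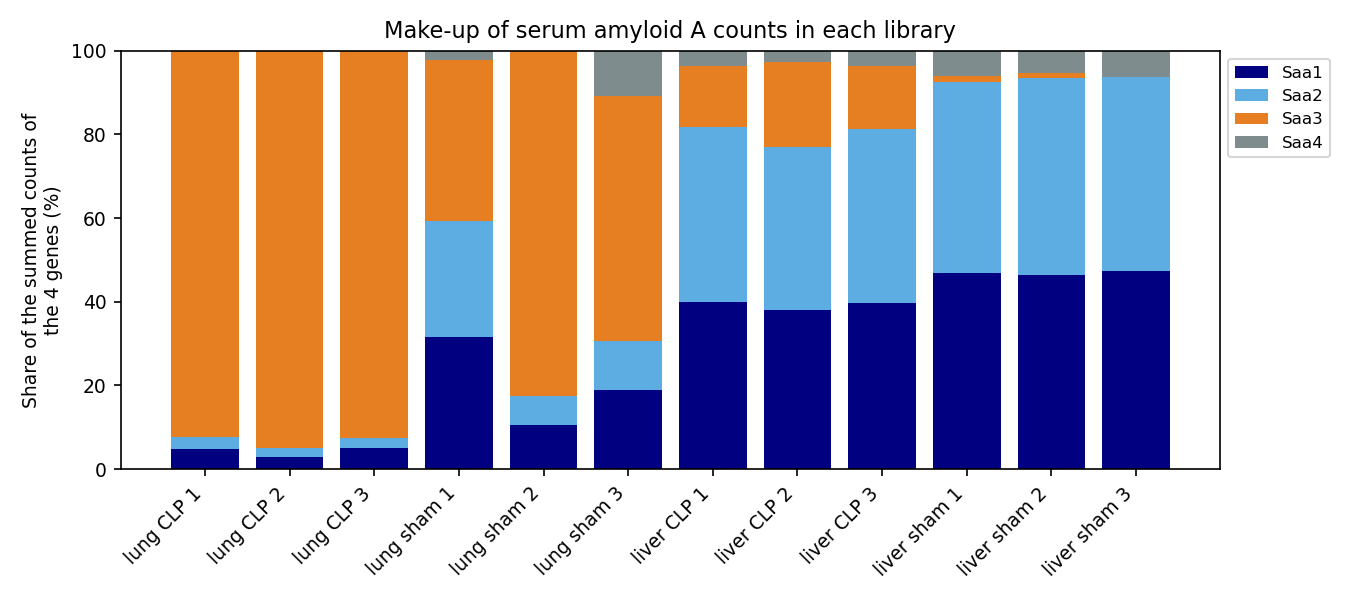
Share (percent) of Saa1, Saa2, Saa3 and Saa4 in the summed counts of the 4 genes in each of the 12 libraries, as stacked bars with lung left of liver and CLP left of sham. Saa3 fills 92.3% to 94.9% of the CLP lung bars, while Saa1 and Saa2 in nearly equal parts fill most of the liver bars.

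Liver transcripts were present at a low level in lung libraries, and the serum amyloid A counts were therefore set against Alb, the albumin gene of hepatocytes. Alb had 517, 604 and 400 counts in CLP lung and 1051, 221 and 470 counts in sham lung, with sham replicate 1 the highest of them. For each 100 Alb counts, Saa1 plus Saa2 had 292, 163 and 197 counts in CLP lung and 22.4, 21.4 and 16.5 counts in CLP liver. In sham the values were 18.4, 6.79 and 6.60 in lung and 29.8, 25.3 and 17.6 in liver. The ratio in CLP lung was thus above that of every liver library, and the ratio in sham lung was within or below the range of sham liver. Saa3 had 2466 to 3553 counts for each 100 Alb counts in CLP lung and 3.01 to 5.71 in CLP liver. Saa4 had 1.75 to 4.26 in CLP lung and 0.718 to 1.01 in CLP liver. Of the hepatocyte markers 1 of 9 tested was higher in CLP than in sham lung and 0 lower, and 4 were higher without sham replicate 1. Of all genes tested in lung, 23.9% were called higher and 24.9% lower. The part of liver transcripts in the lung levels of Saa1, Saa2 and Saa4 was not tested.

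Other cell markers moved with CLP beside the serum amyloid A genes. In lung all 8 neutrophil markers were higher, their summed level being 6204 to 8818 CPM in CLP and 967 to 1110 CPM in sham libraries, and 6 of 7 tested markers of monocytes and macrophages were higher, at 439 to 623 CPM in CLP and 262 to 284 CPM in sham libraries. Of alveolar type 2 markers in lung 1 of 8 was higher and 1 lower, and of adipocyte markers 0 of 6 were higher and 1, Pck1, lower. Of airway markers 1 of 6 was higher, Ltf, which neutrophils also express. Lower in CLP lung were 3 of 6 mesothelial and 3 of 5 endothelial markers, and 1 of 5 fibroblast markers was higher. Among all genes tested, 23.9% were called higher and 24.9% lower in lung, and 21.4% and 21.0% in liver. In liver 7 of 7 tested neutrophil markers were higher, at 151 to 210 CPM in CLP and 16.9 to 19.3 CPM in sham libraries, as were 3 of 8 monocyte and macrophage markers, with 2 lower. One of these 3 was Ly6c2, at 1.71 ± 0.309 CPM in CLP and 0.207 ± 0.0236 CPM in sham liver. It passed the low-count filter through the CLP libraries and could only come out higher. The part of these cells in the Saa1, Saa2 and Saa3 levels was not tested.

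In liver 6 of 7 tested alveolar type 2 markers were also higher after CLP, by 1.72 to 3.47 on the log2 scale. Sftpb, Sftpd and Napsa averaged at most 0.392 CPM in sham liver. They passed the low-count filter through the CLP libraries and could only come out higher. The surfactant gene Sftpc averaged 7.46 ± 2.48 CPM in CLP liver and 1.02 ± 0.763 CPM in sham liver (SD, n = 3 each). With 25, 4 and 16 counts in sham liver, Sftpc also passed the filter only with the help of CLP libraries, which favours a higher value. The summed level of 8 markers was 88.8 to 105 CPM in CLP and 78.5 to 82.1 CPM in sham libraries, most of it from Abca3, at 69.4 ± 5.01 CPM in CLP liver and 75.5 ± 2.97 CPM in sham liver, which was not called. Of 3 tested airway markers 2 were higher, Scgb1a1, at 14.4 ± 7.08 CPM in CLP liver and 1.49 ± 0.910 CPM in sham liver, and Ltf, at 5.74 ± 1.44 CPM in CLP liver and 0 in all sham livers. Ltf is also expressed by neutrophils, and with 0 sham counts it could only come out higher. At the highest Saa3 to Sftpc ratio of CLP lung, the Sftpc counts of CLP livers correspond to 13.3, 9.77 and 14.6 Saa3 counts. Observed were 29842, 54548 and 22794 Saa3 counts. The part of lung transcripts in the liver level of Saa3 was not tested. Among hepatocyte markers of liver 1 of 10 was higher and 2 lower (6 lower with library totals as the scale). Among fibroblast markers 1 of 5 was lower, and among endothelial markers 1 of 5 was higher and 2 lower. Of 3 tested adipocyte markers Fabp4 was higher and Pck1 lower, Pck1 standing at 2488 ± 553 CPM in sham liver. Adipoq, Plin1, Lep and Cfd did not pass the filter, so these calls do not measure adipocytes. None of the 6 mesothelial markers passed the filter in liver. Over all genes tested there, 21.4% were called higher and 21.0% lower.

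The tested cytokines among those that induce serum amyloid A genes were higher after CLP in both organs. Of 7 such genes, 6 of 6 tested in lung and 5 of 5 tested in liver were called higher, beside 23.9% and 21.4% of all genes. Their median log2 fold change was 3.25 in lung and 4.39 in liver, or 4.13 in liver with Osm at its lower bound. Il6 and Tnf in both organs and Osm in liver passed the low-count filter through the CLP libraries and could only come out higher. The counts and medians are partly set by this. Il22, at 0 CPM in both organs, and Lif in liver were not tested. Il6 had 270 counts over the CLP lungs and 2 over the sham lungs, which scaled to library size made a ratio of 146, and 47 over the CLP livers and 2 over the sham livers, a ratio of 29.3. Counting error alone gave these ratios exact 95% intervals of 39.9 to 1209 in lung and 7.68 to 249 in liver. Tnf averaged 81.3 ± 60.8 CPM in CLP lung and 0.466 ± 0.275 CPM in sham lung, with a log2 fold change of 7.43 ± 1.06 (edgeR, Benjamini-Hochberg adjusted p = 0.00271). Il1b averaged 379 ± 40.0 CPM in CLP lung and 42.3 ± 4.85 CPM in sham lung, and 18.5 ± 5.54 CPM in CLP liver and 4.76 ± 2.24 CPM in sham liver. Osm, which encodes oncostatin M, had 42 counts over the CLP livers and 0 over the sham livers, at least 17.5-fold higher with 3 counts as the floor over the group. Limma-voom called 3 rather than 6 of these genes in lung.

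Receptors and adaptors of these cytokines were called higher for 8 of 11 and lower for 2 genes in lung (median 0.83), and higher for 6 of 11 and lower for 2 in liver (median 0.45). Over all genes tested, 23.9% were higher and 24.9% lower in lung, and 21.4% and 21.0% in liver. The largest called changes were those of Tnfrsf1b, a tumour necrosis factor receptor, in lung (log2 fold change 3.24 ± 0.27), of Il1r1, the interleukin-1 receptor, in liver (1.80 ± 0.21), and of the adaptor gene Myd88 in lung (1.68 ± 0.09) and liver (1.40 ± 0.12). Lower were Lifr and Tyk2 in lung and Il1rap and Tyk2 in liver, named here after their values were seen.

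Transcription factors known from serum amyloid A promoters were called higher for 9 of 14 tested genes and lower for 1 in lung, and higher for 11 of 15 and lower for 1 in liver. Among all genes the shares were 23.9% higher and 24.9% lower in lung, and 21.4% and 21.0% in liver. Stat3 rose by 1.10 ± 0.11 in lung and 1.19 ± 0.11 in liver on the log2 scale. Cebpb rose by 1.96 ± 0.24 in lung and 1.76 ± 0.11 in liver, and Cebpd by 1.39 ± 0.23 and 1.79 ± 0.15 in the same order. Nfkbiz, which encodes a nuclear IkB protein, rose by 3.08 ± 0.28 in lung and 1.96 ± 0.19 in liver, and the NF-kB subunit gene Relb by 2.63 ± 0.23 in lung and 3.12 ± 0.30 in liver. Nfkb2 rose by 2.64 ± 0.22 in liver. The lower genes were Maz in lung and Cebpa, which encodes a C/EBP protein of hepatocytes, in liver, both named after their values were seen.

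All 7 feedback inhibitors were called higher in both organs, with a median log2 fold change of 3.29 in lung and 3.14 in liver, beside -0.03 and -0.01 for all genes. The share of all genes called higher was 23.9% in lung and 21.4% in liver. Il1rn encodes the antagonist of the interleukin-1 receptor and rose by 5.38 ± 0.45 in lung and 5.74 ± 0.45 in liver. Socs3, the inhibitor of interleukin-6 signalling, averaged 526 ± 120 CPM in CLP lung and 53.8 ± 5.19 CPM in sham lung, and 321 ± 18.9 CPM in CLP liver and 72.0 ± 10.8 CPM in sham liver. Tnfaip3 rose by 3.90 ± 0.38 in lung, and Socs1 by 5.43 ± 0.18 in liver. Each of these genes, and each transcription factor, receptor and adaptor gene given above with a rise, had an adjusted p below 0.05 in edgeR.

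**Figure D4:**
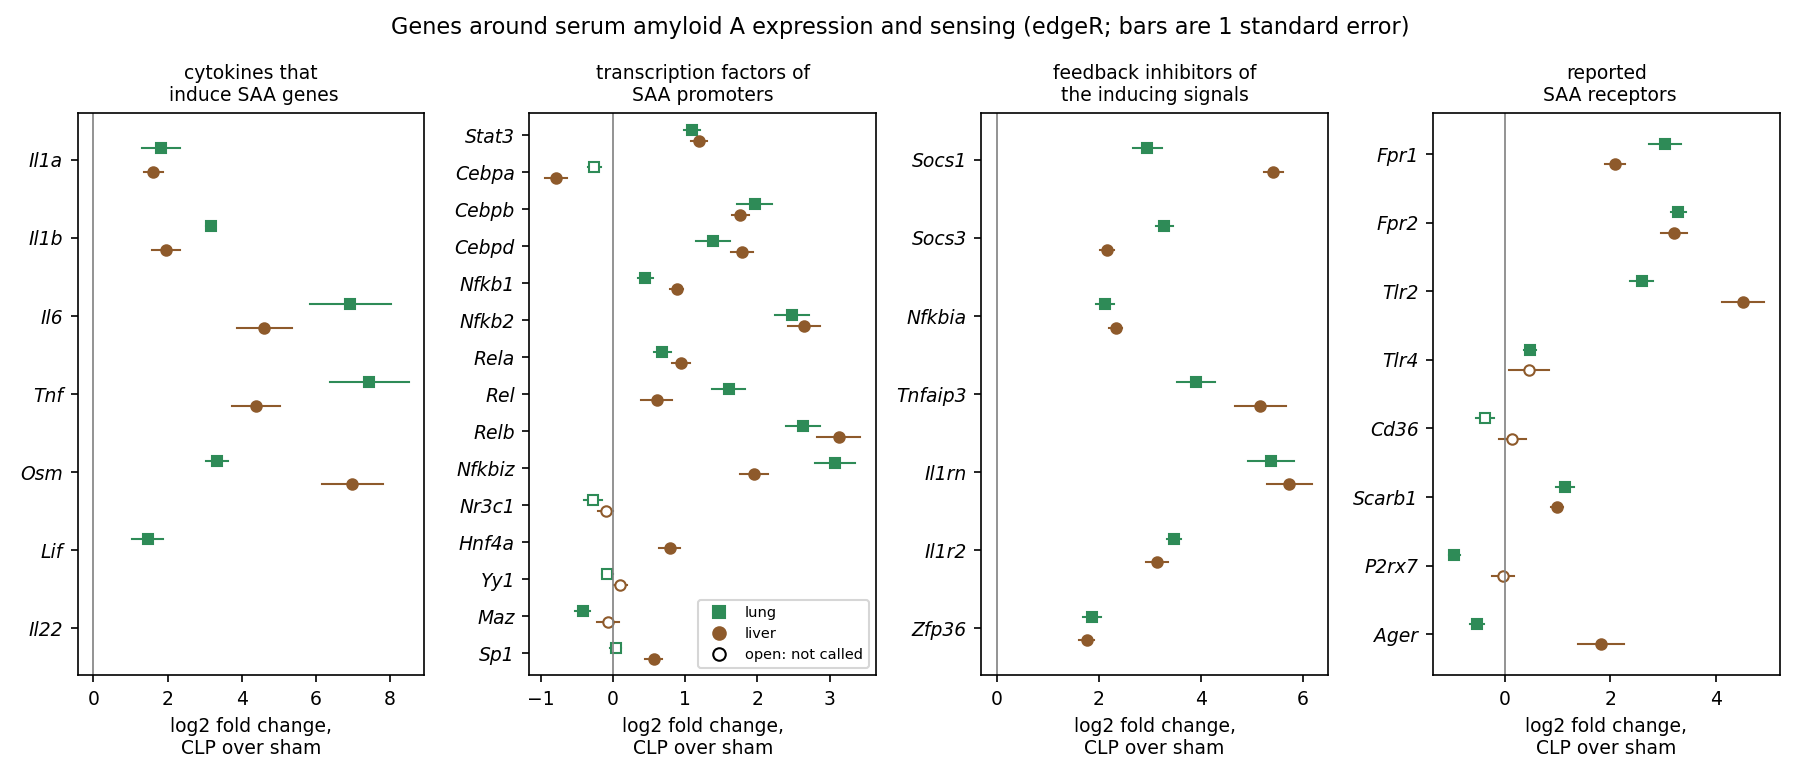
Log2 fold change of CLP over sham (horizontal axis, bars of 1 standard error) for inducing cytokines, transcription factors, feedback inhibitors and reported receptors, lung as green squares above liver as brown circles, filled where called. Feedback inhibitors lie right of 0 in both organs, and among transcription factors Stat3, Cebpb, Cebpd and the NF-kB genes do so; the plotted folds of Il6 and of liver Osm rest on 2 or 0 sham counts.

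Genes reported to encode serum amyloid A receptors were called higher for 5 of 8 and lower for 2 in lung, and higher for 5 of 8 and lower for 0 in liver. One of the 5 in liver was Ager, at 1.47 ± 0.299 CPM in CLP and 0.391 ± 0.235 CPM in sham liver. There it passed the low-count filter through the CLP libraries and could only come out higher. All genes together gave 23.9% higher and 24.9% lower in lung, and 21.4% and 21.0% in liver. Fpr2, a formyl peptide receptor of neutrophils and monocytes, averaged 155 ± 27.8 CPM in CLP lung and 15.9 ± 0.395 CPM in sham lung, and 12.2 ± 1.34 CPM in CLP liver and 1.33 ± 0.472 CPM in sham liver. Fpr1 rose by 3.04 ± 0.30 in lung. Tlr2 rose by 2.59 ± 0.21 in lung and 4.51 ± 0.40 in liver on the log2 scale. Tlr4 rose by 0.48 ± 0.11 in lung (edgeR, Benjamini-Hochberg adjusted p = 0.00837), and its value in liver was 0.46 ± 0.38 (adjusted p = 0.362). The lower genes in lung were P2rx7 and Ager, named after their values were seen.

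Few transcripts of the lipoprotein that carries serum amyloid A were called. Of 13 genes of high-density lipoprotein apolipoproteins and remodelling, 0 of 9 tested were higher and 2 lower in lung, and 1 of 13 was higher and 1 lower in liver. Among all genes 23.9% were higher and 24.9% lower in lung, and 21.4% and 21.0% in liver. The main apolipoprotein gene Apoa1 averaged 6392 ± 726 CPM in CLP liver and 7072 ± 385 CPM in sham liver (edgeR, Benjamini-Hochberg adjusted p = 0.401), and Apoa2 averaged 3200.4 ± 154 CPM in CLP liver and 3259 ± 362 CPM in sham liver (adjusted p = 0.889). Abca1, the cholesterol exporter that loads apolipoprotein A-I, rose by 1.89 ± 0.20 in liver, and Apoa4 changed by -1.20 ± 0.39 there. Pltp, a phospholipid transfer protein, changed by -0.92 ± 0.14 and Abcg1 by -0.26 ± 0.09 in lung. Each of these 4 passed the threshold in edgeR.

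Other acute phase plasma proteins were called higher for 8 of 15 tested genes and lower for 0 in lung (median 0.58), and higher for 11 of 18 and lower for 1, Orm3, in liver (median 0.52). Over all genes the shares were 23.9% higher and 24.9% lower in lung, and 21.4% and 21.0% in liver. In liver Crp averaged 1050.0 ± 47.0 CPM in CLP and 490.5 ± 42.6 CPM in sham libraries, a log2 fold change of 1.10 ± 0.12, and Apcs, which encodes serum amyloid P, a protein unrelated to serum amyloid A, changed by 0.73 ± 0.22. Hp, the haptoglobin gene, changed by 0.18 ± 0.13 in liver (edgeR, Benjamini-Hochberg adjusted p = 0.306) and rose by 1.31 ± 0.15 in lung (adjusted p = 0.000358). Lcn2 rose by 4.42 ± 0.25 in lung and 1.89 ± 0.31 in liver, Orm1 by 5.05 ± 0.51 in lung and 0.51 ± 0.17 in liver, and Cp, the ceruloplasmin gene, by 1.43 ± 0.17 in liver. The difference between the responses was called for 5 of 18 genes, beside 17.7% of all genes. The lung response exceeded the liver response for Orm1 by 4.51 ± 0.54 (adjusted p = 0.000168), for Lcn2 by 2.51 ± 0.44 (adjusted p = 0.00184), for the protease inhibitor gene Serpina3n, named after its values were seen, by 1.41 ± 0.33 (adjusted p = 0.0110) and for Hp by 1.10 ± 0.31 (adjusted p = 0.0265), and for Cp the difference was below 0, at -0.88 ± 0.27 (adjusted p = 0.0384). It was not called for the other 13, Crp among them (-0.46 ± 0.59, edgeR, Benjamini-Hochberg adjusted p = 0.662). The count of 11 in liver was 7 with library totals as the scale, 7 without CLP replicate 1 or 2, 6 without sham replicate 3, 6 in 1 fit of all 12 libraries, 12 in DESeq2, and 13 with a replicate block or without sham replicate 2, and the count of 8 in lung was 13 without sham replicate 1.

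Of the 5 protein-coding genes on either side of the cluster, 6 of 10 were tested in each organ. In lung 4 were higher and 0 lower, namely Ldha, which encodes lactate dehydrogenase A (log2 fold change 1.11 ± 0.12), Saal1 (0.36 ± 0.12), Gtf2h1 (0.36 ± 0.08) and Tsg101 (0.20 ± 0.07). In liver 0 were higher and 1 lower, Hps5 (-0.71 ± 0.16). Beside these counts, 23.9% of all genes were called higher and 24.9% lower in lung, and 21.4% and 21.0% in liver. In lung the largest of these changes was far smaller than that of Saa3. The change of Hps5 in liver was also far smaller than that of Saa3 there. It exceeded in size the liver changes of Saa1 (0.11), Saa2 (0.17) and Saa4 (-0.46).

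The genes whose pattern over the 12 libraries was most like that of a serum amyloid A gene were found by the root mean square difference of log2 CPM after centring each of 14378 genes on its own mean. Nearest to Saa3 were Serpina3i, a protease inhibitor gene of the Serpina3 cluster (difference 1.31), the macrophage transcription factor gene Spic (1.60), Lcn2 (1.70), the kinase gene Ikbke (1.86) and the chemokine gene Cxcl10 (1.86), where the median over all genes was 3.94. All 5 were higher after CLP in both organs, by 4.42 to 5.95 in lung and 1.89 to 5.25 in liver on the log2 scale. They were picked for their likeness to Saa3 in the same 12 libraries, so the shared rise follows from the choice. Nearest to Saa1 plus Saa2 were Orm1 (0.917), Ambp (1.06), the histidine-rich glycoprotein gene Hrg (1.33), the apolipoprotein gene Apon (1.34) and the tyrosine aminotransferase gene Tat (1.39), where the median was 5.82. These are plasma protein and enzyme genes of hepatocytes, and the measure is dominated by the distance between lung and liver. Orm1 stood at 68.8 ± 24.6 CPM in CLP lung and 2.10 ± 1.63 CPM in sham lung. Serpina3i and Orm1 belong to families of similar genes, so their counts carry the same doubt as those of Saa1 and Saa2. Exons of Stat3, Cebpa, Cebpb, Cebpd, Il1b, Nfkb2, Myd88, Il1rap, Tyk2, Cp, Pltp, Apoa4, Cxcl10 and Ikbke overlap exons on the opposite strand. Reads of these genes could include reads of the overlapping gene unless the counting used strand. On its own strand, Fpr2 shares exons with Fpr3, and P2rx7 overlaps the microRNA gene Mir8115.

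**Figure D5:**
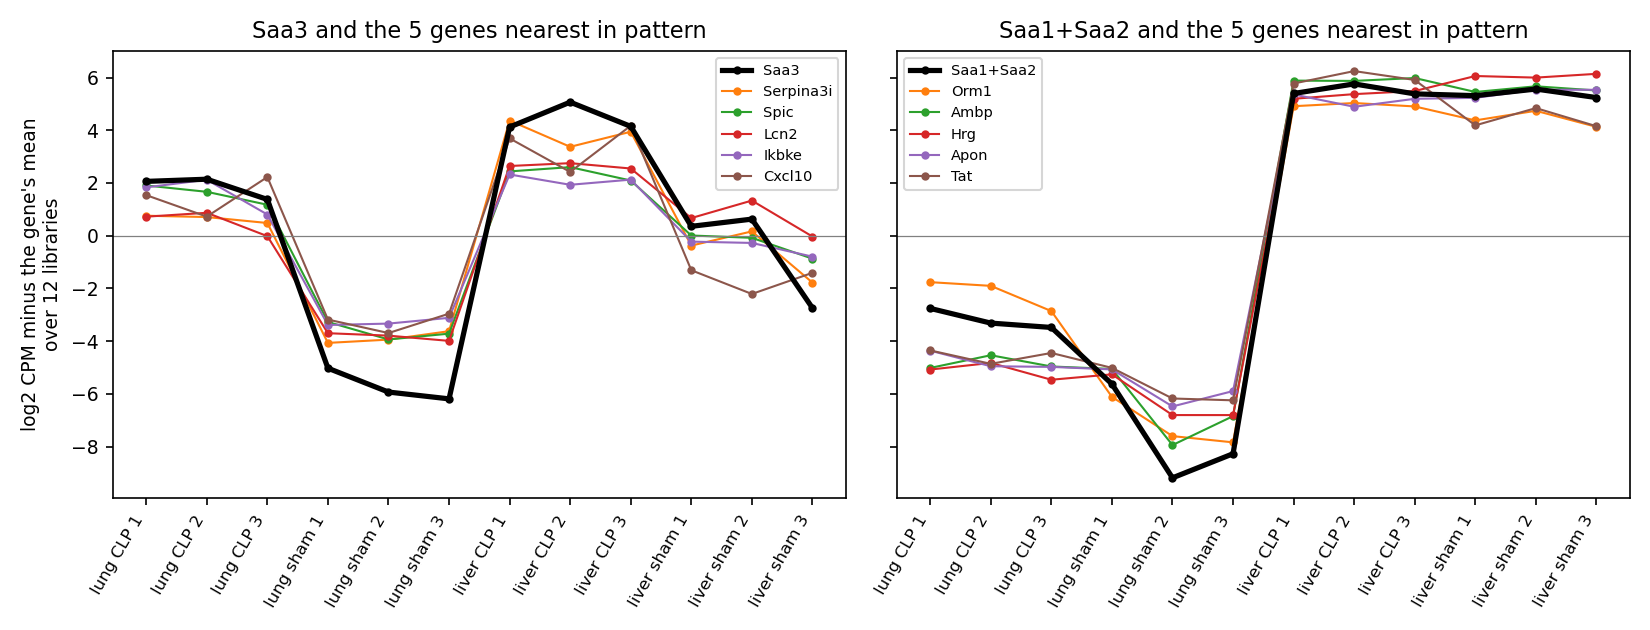
Log2 CPM minus each gene's mean over 12 libraries (vertical axis) for Saa3 on the left, Saa1 plus Saa2 on the right and the 5 nearest genes of each, across the libraries, with lung left of liver and CLP left of sham; lines only join the points of a gene. Saa3 (black) falls farther below its neighbours in sham lung, and the right panel is set by the step between lung and liver.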

How the data were processed

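RNA of lung and liver was sequenced in 12 libraries, 3 in each of 4 groups, from stranded Illumina TruSeq libraries run on a NextSeq500, per the labels' protocols. The deposited values are raw counts per gene for 55414 Ensembl identifiers, not normalized by the authors. STAR 2.7.10a, featureCounts, FastQC, DESeq2 and build mm39 are named without role or order, per the submitters' processing notes; the annotation release, the strand setting and the handling of reads with several hits are unknown, being not given in the sources used here. A lookup of gene names gave 52081 identifiers a symbol and 3333 none.

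Tests across genes used edgeR 4.0.16 (R 4.3.3): low counts removed by group (minimum count 10, minimum total 15), trimmed mean of M values scaling, robust quasi-likelihood, two-sided p-values adjusted by Benjamini-Hochberg over all genes tested, threshold 0.05. A gene close to 0 in sham libraries passes this filter only through its CLP libraries and can then only be called higher. Each organ was fitted on its 6 libraries, and the difference in response and the sham organs on all 12. The standard error is the log2 fold change divided by the square root of F, an approximation, and 95% intervals use the fitted degrees of freedom. The procedure was tested on simulated data. Saa1 and Saa2 were also summed before fitting. Alternatives were other scalings, no filter, DESeq2 1.42.0, limma-voom (limma 3.58.1), a replicate block, 1 fit of all libraries and leaving out each library. Replicate pairs differed by 5.28 to 37.6 per degree of freedom (chi-square over genes with at least 20 counts), more than counting error alone would give. Libraries made separately from the same RNA or mouse can differ so too, so this does not show separate mice. Intervals of shares and ratios and the floor of 3 counts cover counting error only, since reads without molecular identifiers are not independent molecules.

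The members, the gene lists and the tests were chosen with earlier results of these data known. One gene of the transcription factor list is not reported here, and the list's counts leave it out. Named genes are the 4 members and, for each list and organ, the 2 called genes with the largest change, a fixed set (Il6, Il1b, Tnf, Stat3, Cebpb, Cebpd, Nfkbiz, Socs3, Lcn2, Hp, Orm1, Apcs, Crp, Apoa1, Apoa2, Fpr2, Tlr2, Tlr4) and the 5 nearest patterns (log2 CPM with a prior count of 2, leaving out predicted genes and immunoglobulin or T cell receptor segments). The annotation used for lengths, overlaps and sequences is GENCODE M21 and RefSeq GRCm38.p6, older than mm39.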

Additional observations from a re-analysis of the deposited data

Results flagged for a closer look

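Each serum amyloid A gene was picked out because its response to CLP differed between the organs in the test of the difference itself (lung response minus liver response, edgeR on all 12 libraries, Benjamini-Hochberg adjusted p below 0.05). The difference was 3.93 ± 0.76 on the log2 scale for Saa1 (adjusted p = 0.00366), 3.31 ± 0.81 for Saa2 (adjusted p = 0.0142) and 3.66 ± 0.86 for Saa1 plus Saa2 (adjusted p = 0.0113). It was 3.04 ± 0.95 for Saa3 (adjusted p = 0.0489), and 1.89 ± 0.60 for Saa4 (adjusted p = 0.0461), which combines a lower level in CLP liver with a lung value that did not pass the threshold by itself. Groups of 3 libraries are too small for a check of single outlying libraries.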

How the results depend on the processing

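Of 381 alternative values for the members and the counts of called genes, 345 kept their direction and side of the threshold, 32 lost the call and 4 reversed. The reversals were those of uncalled liver values: Saa1 (-0.0856), Saa2 (-0.0222) and Saa1 plus Saa2 (-0.0537) with library totals alone, where the median of all genes also moved, and Saa1 without CLP replicate 2 (leave-one-out range -0.0223 to 0.203). With no low-count filter, which adds genes to the adjustment, Saa2 (3.50) and Saa1 plus Saa2 (3.83) in lung and the organ difference of Saa2 (3.32), Saa3 (3.05), Saa4 (1.90) and Saa1 plus Saa2 (3.67) were no longer called. In 1 fit of all 12 libraries the liver value of Saa4 (-0.46) was not called, and in limma-voom the organ difference of Saa3 (2.59) was not; the cause was not tested. Leaving out 1 library lost the lung call of Saa1 plus Saa2 in 2 of 6 cases (3.33 to 5.69), and the organ difference of Saa3 in 11 of 12 (2.62 to 3.61) and of Saa4 in 10 of 12 (1.30 to 2.61). DESeq2 gave no adjusted p for Saa1 plus Saa2 in the organ difference (3.64) and between sham organs (-12.24), and these are not counted. Library totals alone raised the share of higher genes among calls of the organ difference to 65.9%, against 50.1%.

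Libraries with the same replicate number did not deviate together within an organ (correlations 0.00775 to 0.0957), nor in every pair across organs (-0.0126 to 0.144), so the numbers were not taken as pairs. With a replicate block the organ difference of Saa4 was 1.89 (edgeR, adjusted p = 0.0761), called genes numbered 6870 in lung and 5245 in liver, and no other call of a member changed. Over the alternatives, counts of lower genes moved between 0 and 3 in the pathway lists and between 0 and 6 in the cell marker lists, the 6 being hepatocyte markers in liver with library totals as the scale. Depth limits Saa4 in lung, with at most 22 counts a library.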
